A study of Homo sapiens with 15 samples.

Results

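The teneurins TENM1 to TENM4, the latrophilins LPHN1 to LPHN3 and the fibronectin leucine-rich transmembrane proteins FLRT2 and FLRT3 were followed across ribosome profiling libraries of HEK293 cells. These 9 genes are 9 of the 55773 gene names in the deposited table, and all 9 were found under the names used here. LPHN1, LPHN2 and LPHN3 are the older names of ADGRL1, ADGRL2 and ADGRL3. TENM1 was selected on its measured values, being lower in all 3 perturbed lines, so its values are given as a description, with no test. The other 8 genes were included by family membership, though with earlier results of these data known. FLRT1, of the FLRT family, is described with the partners instead.

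HEK293 is an established human embryonic kidney line, and ribosome profiling counts the mRNA fragments that ribosomes protect from nuclease. The 15 libraries form 5 groups of 3. In 3 groups the cells were treated with doxycycline at 1 µg/mL for 24 h, and their genotype is given as Flag/HA alone (Flag/HA control), Flag/HA-ZC3H7A or Flag/HA-ZC3H7B. The other groups carry no doxycycline label. They were grown with puromycin at 5 µg/mL to select for a short hairpin, taken off it before collection, and lysed with cycloheximide, which holds ribosomes on mRNA, at 100 µg/mL. Cycloheximide is not given for the Flag/HA lysis. They are a wild-type line with a control hairpin (Parental), and a line whose label gives ZC3H7A as knocked out and ZC3H7B as the hairpin's target (ZC3H7A/B-DD). ZC3H7A and ZC3H7B are related RNA-binding zinc finger proteins, and the series asks how they act on translation and stability according to codon content. The labels do not say whether a line is a single clone. They call the Flag/HA samples independent replicates and say nothing on this for the other groups. In every group p-values measure only the spread between these samples. A genotype and other differences between the lines cannot be told apart. The Flag/HA libraries and the other 6 came from different lysis buffers and library protocols, so changes were computed only against the control of the same set. Footprints do not separate the amount of an mRNA from its translation, and in these bulk libraries fewer cells with TENM1 and fewer footprints per cell cannot be told apart.

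Teneurins are very large adhesion proteins that cross the membrane once and carry most of their mass outside the cell, where they bind each other and the latrophilins. Latrophilins are adhesion G protein-coupled receptors, first known as receptors of a spider toxin, and are cut into an extracellular and a membrane fragment during maturation. FLRT proteins bind latrophilins at another surface of the receptor and also bind UNC5 receptors. Contacts between these families are best known from synapse formation and neuronal migration, and HEK293 cells are a common host for testing their binding.

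Libraries held 20777204 to 42680589 assigned reads. Values are given as normalized counts, which are reads divided by a size factor of each library. Of the targeted genes, ZC3H7B stood at 27885 ± 927 normalized counts (SD, n = 3) in its overexpressing line, against 2152 ± 71.8 in the Flag/HA control. ZC3H7A stood at 38044 ± 562 in its own line, against 6547 ± 52.6. The same gene read 7116, 1890.3 and 5066 where the label is ZC3H7A/B-DD, against 1885, 1820 and 2311 in Parental. ZC3H7B read 3948, 2399 and 2969 there against 2479, 2321 and 2609. Neither targeted gene had a lower mean in these libraries, and the deleted stretch is not given in the sources used here, so directions drawn from this label rest on the label alone. All 8 of 8 genes associated with HEK293 cells had reads in every group.

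The coding sequences differ widely in how often a codon ends in A or T, the property the series is about. The first 60 codons of 5 members are shown because they span this range, with the last base of each codon in capitals where it is A or T (the start codon is left in lower case). They were read from the GENCODE release 29 transcript with the longest coding sequence of each gene.
LPHN1: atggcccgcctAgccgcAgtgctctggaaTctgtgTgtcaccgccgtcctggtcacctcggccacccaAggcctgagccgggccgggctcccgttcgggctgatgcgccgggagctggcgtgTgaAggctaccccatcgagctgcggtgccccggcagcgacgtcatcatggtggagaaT
TENM3: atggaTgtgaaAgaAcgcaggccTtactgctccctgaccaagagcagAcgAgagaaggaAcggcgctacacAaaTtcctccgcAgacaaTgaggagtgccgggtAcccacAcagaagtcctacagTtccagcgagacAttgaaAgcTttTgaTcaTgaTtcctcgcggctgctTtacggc
TENM1: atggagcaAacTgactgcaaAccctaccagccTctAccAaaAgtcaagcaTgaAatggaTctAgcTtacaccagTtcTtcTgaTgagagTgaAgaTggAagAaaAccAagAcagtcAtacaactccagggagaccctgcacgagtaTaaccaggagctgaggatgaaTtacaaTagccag
FLRT3: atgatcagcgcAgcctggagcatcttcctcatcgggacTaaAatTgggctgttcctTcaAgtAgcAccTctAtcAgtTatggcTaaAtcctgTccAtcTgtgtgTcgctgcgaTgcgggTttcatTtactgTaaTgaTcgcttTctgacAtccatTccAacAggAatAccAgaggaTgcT
LPHN2: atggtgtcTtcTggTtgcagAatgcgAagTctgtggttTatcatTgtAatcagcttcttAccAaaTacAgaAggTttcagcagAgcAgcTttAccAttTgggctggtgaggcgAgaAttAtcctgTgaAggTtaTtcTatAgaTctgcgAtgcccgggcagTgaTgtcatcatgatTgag
After the start codon, 8 codons of this stretch end in A or T in LPHN1, 22 in TENM3, 28 in TENM1, 34 in FLRT3 and 35 in LPHN2. The 2 latrophilins therefore sit at opposite ends of the range although each has 1474 codons.

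TENM1, the teneurin chosen for its pattern, held 4.76% of its Flag/HA control level in the ZC3H7A line and 0.829% in the ZC3H7B line. It lies at chrX:124375903-124963817 on the minus strand (GRCh38, GENCODE release 29). In the Flag/HA control, replicates 1, 2 and 3 read 1427, 1391 and 1558 normalized counts. With ZC3H7A the libraries read 87.0, 55.9 and 65.2, and with ZC3H7B 16.7, 10.7 and 8.80. Every overexpressing library lay below every control library, and every ZC3H7B library lay below every ZC3H7A library.

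Group means were 1459 ± 87.6 in the Flag/HA control, 69.4 ± 16.0 with ZC3H7A and 12.1 ± 4.13 with ZC3H7B (SD, n = 3 each). TENM1 was thus 21.0-fold lower with ZC3H7A (95% counting interval 17.8 to 24.8, from 155 and 3529 reads). It was 120.7-fold lower with ZC3H7B (82.2 to 188.1), where only 25 reads remained in the 3 libraries. The exact Poisson intervals cover counting error only. On the log2(normalized count + 1) scale, which understates changes of low genes, the differences were -4.40 and -6.85. The latter was the lowest of the 15599 genes compared, and the former ranked 12 from the lowest. Between the overexpressing lines TENM1 was 2.45 log2 units higher with ZC3H7A. This gap rests on the low ZC3H7B values.

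In the other set of lines TENM1 read 1004, 942 and 788 in Parental and 88.7, 77.2 and 99.6 in the libraries labelled ZC3H7A/B-DD. The groups did not overlap, and the mean was 10.3-fold lower (counting interval 9.02 to 11.7), 911 ± 111 against 88.5 ± 11.2. The log2 difference of -3.35 ranked 40 from the lowest among 17092 genes, and was -3.45 without Parental replicate 3.

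Across the 14220 genes compared in both sets, 475 (3.34%) were called lower in all 3 perturbed lines at a limma adjusted p under 0.05. The ZC3H7A and ZC3H7B comparisons share the Flag/HA control. Ranked by the smallest of its 3 falls, TENM1 came first of these 475 with 3.35 log2 units, followed by SLC6A11, a GABA transporter, with 2.18 and by LUM, which encodes the matrix proteoglycan lumican, with 1.98. LUM is a low gene, with a Flag/HA control mean of 23.8 ± 6.44 normalized counts. These counts follow from the way TENM1 was chosen and are not a test of it.

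**Figure D1:**
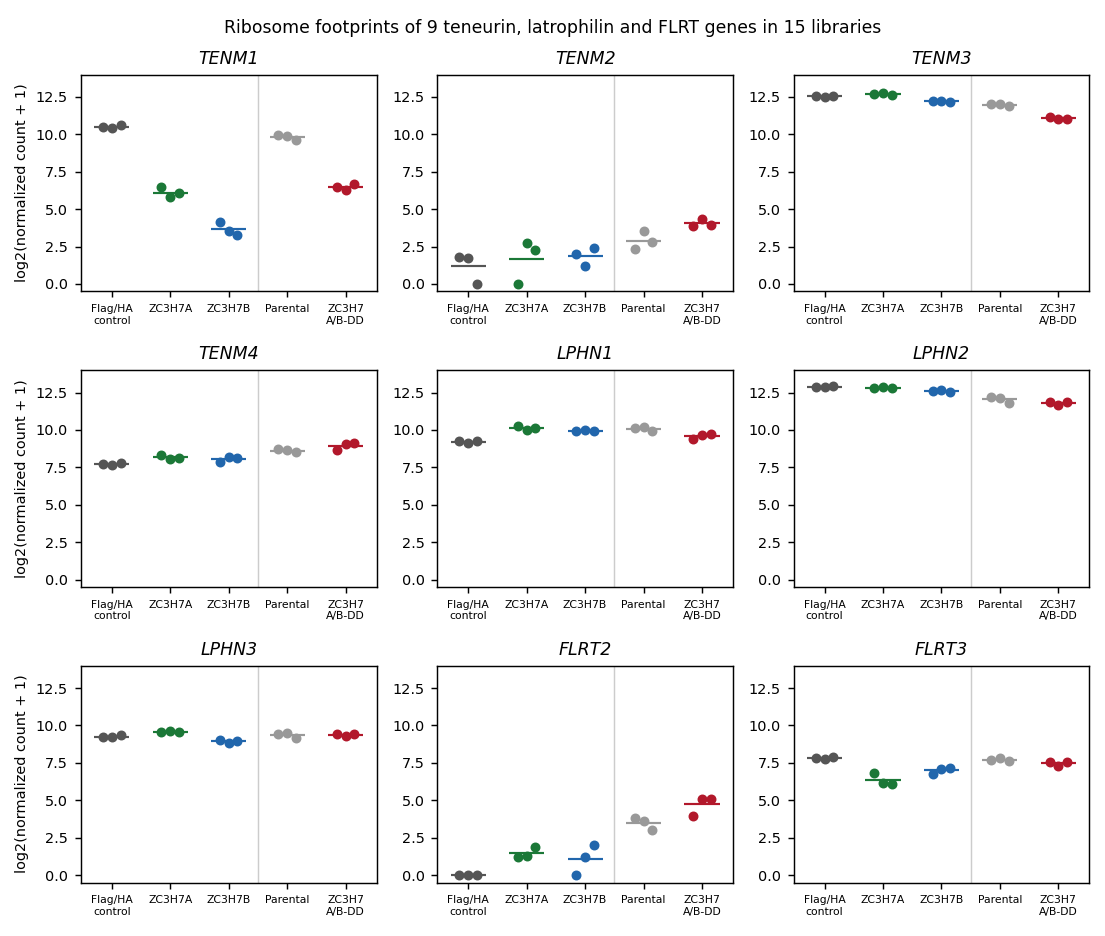
Each panel shows 1 gene, with log2(normalized count + 1) on the vertical axis, the 15 libraries as points in 5 groups and group means as lines; the vertical line parts the 2 sets of lines, which are not compared in level. TENM1 drops from above 10 to about 6.1 with ZC3H7A and 3.7 with ZC3H7B, while TENM3 and LPHN2 stay above 11 in every library.

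The other teneurins did not share this pattern. TENM3 (chr4:182143987-182803024, plus strand) was the most abundant teneurin in every group. It read 5965, 5864 and 5973 in the Flag/HA control, 6734, 6923 and 6331 with ZC3H7A and 4780.4, 4803 and 4663 with ZC3H7B. All ZC3H7A libraries lay above and all ZC3H7B libraries below the control. TENM3 rose by 0.17 log2 units with ZC3H7A (limma adjusted p = 0.0023) and fell by 0.32 with ZC3H7B (limma adjusted p = 1.24e-06).

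In Parental, TENM3 read 4207, 4158 and 3815, and in the libraries labelled ZC3H7A/B-DD 2291, 2111 and 2129. It fell to 53.6% of Parental, a log2 change of -0.90 ± 0.08 (SE, limma adjusted p = 0.000157). Among the 8 family members tested there, this was the change with the smallest adjusted p.

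TENM4 (chr11:78652831-79440948, minus strand), a teneurin also known for roles in oligodendrocytes, was far less abundant than TENM3 in every group. It read 206, 201 and 219 in the Flag/HA control, 321, 268 and 276 with ZC3H7A and 233, 284 and 273 with ZC3H7B. Both overexpressing groups lay above the control. TENM4 rose by 0.46 log2 units with ZC3H7A (limma adjusted p = 0.0012) and by 0.33 with ZC3H7B (limma adjusted p = 0.0166). The latter call was lost without Flag/HA control replicate 2 (adjusted p = 0.0568) or ZC3H7B replicate 2 (0.0785). In Parental it read 414, 402 and 361 against 397, 543 and 567 in the libraries labelled ZC3H7A/B-DD, where the groups overlapped (log2 0.34, limma adjusted p = 0.12). Without replicate 1 of the latter the difference passed (adjusted p = 0.0222).

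TENM2 (chr5:167284799-168264157, plus strand) was close to the limit of detection. It had 4, 7 and 6 reads over the 3 libraries of the Flag/HA control, ZC3H7A and ZC3H7B, never above 5.59 normalized counts, and was not tested. It read 4.05, 10.4 and 6.10 in Parental and 14.0, 18.9 and 14.7 in the libraries labelled ZC3H7A/B-DD. This log2 difference of 1.17 did not pass (limma adjusted p = 0.0636), and TENM2 met the minimum level for testing only through the latter group.

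As a family, teneurins summed to 7603 ± 145 normalized counts in the Flag/HA control, 7024 ± 306 with ZC3H7A and 5027 ± 75.7 with ZC3H7B (SD, n = 3). TENM1 supplied 19.2% ± 0.80 of that sum in the control, 0.989% ± 0.224 with ZC3H7A and 0.240% ± 0.081 with ZC3H7B. Its share was 16.9% ± 0.99 in Parental and 3.18% ± 0.37 in the libraries labelled ZC3H7A/B-DD. The teneurin sums there were 5370 ± 352 in Parental and 2784 ± 30.4 in the latter libraries. The coding lengths of the 4 teneurins lie between 2699 and 2774 codons, so these shares are close to shares per length.

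Latrophilins are the receptors of the teneurins, and the 3 genes moved in different ways. LPHN1 (chr19:14147743-14206187, minus strand) read 613, 554 and 624 in the Flag/HA control, 1239, 1005 and 1109 with ZC3H7A and 955, 1014 and 961 with ZC3H7B. Every library of both overexpressing lines lay above every control library. LPHN1 rose by 0.90 log2 units with ZC3H7A (limma adjusted p = 4.23e-10) and by 0.71 with ZC3H7B (limma adjusted p = 2.16e-08).

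In Parental, LPHN1 read 1098, 1158 and 994, and in the libraries labelled ZC3H7A/B-DD 663, 794 and 832. It fell by 0.51 there (limma adjusted p = 0.0116), with no overlap between the groups. Without Parental replicate 2 the adjusted p was 0.0627. LPHN1 supplied 6.75% ± 0.34 of the summed latrophilin counts in the Flag/HA control, against 12.2% ± 1.36 with ZC3H7A and 12.8% ± 0.25 with ZC3H7B. Its share was 18.0% ± 1.11 in Parental and 15.3% ± 2.14 in the libraries labelled ZC3H7A/B-DD, where the libraries overlapped. An antisense gene, AC022098.1, shares 473 bases or 5.57% of the exonic bases of LPHN1, and whether counting used strand is not given in the sources used here.

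LPHN2 (chr1:81306160-81992436, plus strand) was the most abundant of the 9 genes. It read 7643, 7565 and 7673 in the Flag/HA control, 7099, 7426 and 7189 with ZC3H7A and 6160, 6456 and 5915 with ZC3H7B. All libraries of the overexpressing lines lay below the control. LPHN2 fell by 0.31 log2 units with ZC3H7B (limma adjusted p = 2.34e-06). With ZC3H7A the difference was -0.08 and did not pass (limma adjusted p = 0.14); with quantile scaling it turned to 0.06. In Parental, LPHN2 read 4725, 4573 and 3632 against 3778, 3218 and 3737 in the libraries labelled ZC3H7A/B-DD. The lowest Parental library, replicate 3, lay inside the range of the other group. The log2 difference was -0.26 (limma adjusted p = 0.137), and -0.38 without that replicate (adjusted p = 0.00997).

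LPHN3 (chr4:61201258-62078335, plus strand) has been studied as a gene linked to attention deficit hyperactivity disorder. It read 587, 589 and 644 in the Flag/HA control, 770 (replicate 1), 809 and 739 with ZC3H7A and 512, 459 and 503 with ZC3H7B. The ZC3H7A libraries lay above and the ZC3H7B libraries below the control, with no overlap. LPHN3 rose by 0.35 log2 units with ZC3H7A (limma adjusted p = 0.000333) and fell by 0.30 with ZC3H7B (limma adjusted p = 0.00144). In Parental it read 673, 714 and 572 against 683, 624 and 692 in the libraries labelled ZC3H7A/B-DD. The groups overlapped, and the log2 difference of 0.03 had a 95% interval of -0.21 to 0.28 (limma adjusted p = 0.849). It was -0.06 without Parental replicate 3 and -0.06 with library weights.

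The FLRT genes encode ligands that bind latrophilins on a neighbouring cell. FLRT3 (chr20:14322988-14337616, minus strand) read 224, 220.1 and 238 in the Flag/HA control, 109.8, 69.9 and 66.5 with ZC3H7A and 105, 135 and 142 with ZC3H7B. All libraries of the overexpressing lines lay below the control. FLRT3 fell by 1.50 log2 units with ZC3H7A (limma adjusted p = 1.18e-07), to 36.1% of the control. It fell by 0.84 with ZC3H7B (limma adjusted p = 0.000277), to 56.1%. Apart from TENM1, these were the strongest falls among the family members tested in the Flag/HA lines. In Parental it read 208, 229 and 193 against 186, 154 and 188 in the libraries labelled ZC3H7A/B-DD, a log2 difference of -0.26 that did not pass (limma adjusted p = 0.207).

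FLRT2 (chr14:85530144-85654426, plus strand) had no read in the 3 Flag/HA control libraries, which allows up to 1.24 normalized counts as a mean (3 reads over the group). With ZC3H7A it had 4 reads and with ZC3H7B 3 reads, and it was not tested. In Parental it read 12.95, 11.3 and 7.11, and in the libraries labelled ZC3H7A/B-DD 14.8, 33.1 and 33.5. The log2 difference was 1.25 (limma adjusted p = 0.04997), with 36 and 72 reads behind the 2 groups. It met the minimum level only through the group where it is higher, and leaving out either Parental replicate 3 (adjusted p = 0.0943) or replicate 2 of the other group (0.14) ended the call.

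**Figure D2:**
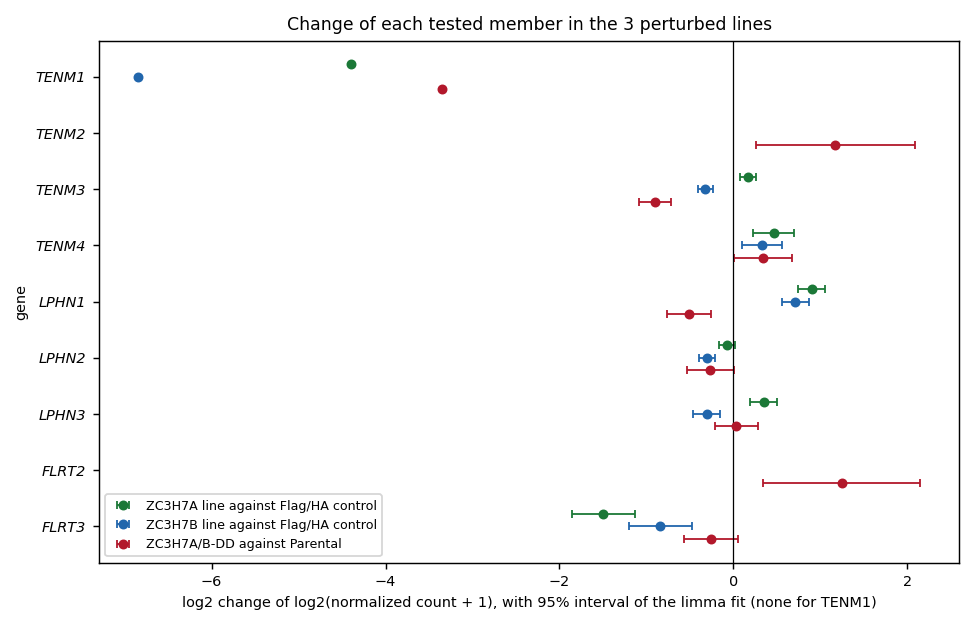
Log2 differences (horizontal axis) of each tested gene (vertical axis) are shown for the ZC3H7A line (green), the ZC3H7B line (blue) and the libraries labelled ZC3H7A/B-DD (red), each against its own control. Bars are 95% intervals of the limma fit before adjustment for the number of genes, and TENM1 has none because it was chosen for its falls; TENM1 sits at -4.40, -6.85 and -3.35, and all other genes lie between -1.50 and 1.25.

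With ZC3H7A, 6 of the other 8 members met the minimum level, 4 were higher (TENM3, TENM4, LPHN1 and LPHN3) and 1 was lower (FLRT3). Of all genes tested in this comparison, 57.5% were called, 29.2% higher and 28.2% lower. With ZC3H7B the same 6 were tested, 2 were higher (TENM4 and LPHN1) and 4 lower (TENM3, LPHN2, LPHN3 and FLRT3), where 54.3% of all genes were called. Of all genes tested with ZC3H7B, 25.4% were lower and 28.9% higher. Against Parental, 2 of 8 members were lower in the libraries with the ZC3H7A/B-DD label (TENM3 and LPHN1), where 24.5% of all genes were called, 11.0% higher and 13.5% lower. FLRT2 also passed there, but FLRT2 and TENM2 had met the minimum only through the group where they are higher, so the FLRT2 call is no support for a rise. With FLRT2 the count is 3, and it became 6 with library weights and 1 without Parental replicate 2. With so many genes called, a call on a family member is common in these lines, and the sizes and directions above carry the description.

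The contrast of the overexpressing lines compared the family members directly, without the shared control, and 36.6% of all genes were called in it. TENM3, LPHN1, LPHN2 and LPHN3 were higher with ZC3H7A than with ZC3H7B, by 0.49, 0.19, 0.23 and 0.65 log2 units. FLRT3 was lower with ZC3H7A by 0.66 (limma adjusted p = 0.00459), although the groups touched: its highest ZC3H7A library, 109.8, lay above its lowest ZC3H7B library, 105. The LPHN1 difference barely passed (limma adjusted p = 0.049), its groups overlapped, and it was lost in 5 of 6 fits that left out a library. TENM4 differed by 0.13, with a 95% interval of -0.10 to 0.37 (limma adjusted p = 0.393).

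Levels of different genes were compared per kilobase of coding sequence, over the longest coding sequence of each. LPHN2 came first and TENM3 next in all 5 groups, with 1725 ± 12.6 and 733 ± 7.46 normalized counts per kb in the Flag/HA control. TENM1 followed there with 178 ± 10.7, then LPHN1 with 135 ± 8.47 and LPHN3 with 128 ± 6.78, which overlapped each other, then FLRT3 with 117 ± 4.71. TENM4 (25.1 ± 1.10), TENM2 (0.197 ± 0.171) and FLRT2 (no read) were the lowest. TENM1 moved to rank 7 of 9 with ZC3H7A (8.46 ± 1.95) and with ZC3H7B (1.47 ± 0.50). In the latter its libraries overlapped those of FLRT2.

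Across the other set of lines, TENM1 ranked 5 in Parental (111 ± 13.5 per kb), where it overlapped LPHN3 above and FLRT3 below. It ranked 8 in the libraries labelled ZC3H7A/B-DD (10.8 ± 1.37), where FLRT2 (13.7 ± 5.40) was next above with overlapping libraries. LPHN1 held rank 3 in every group but the Flag/HA control.

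**Figure D3:**
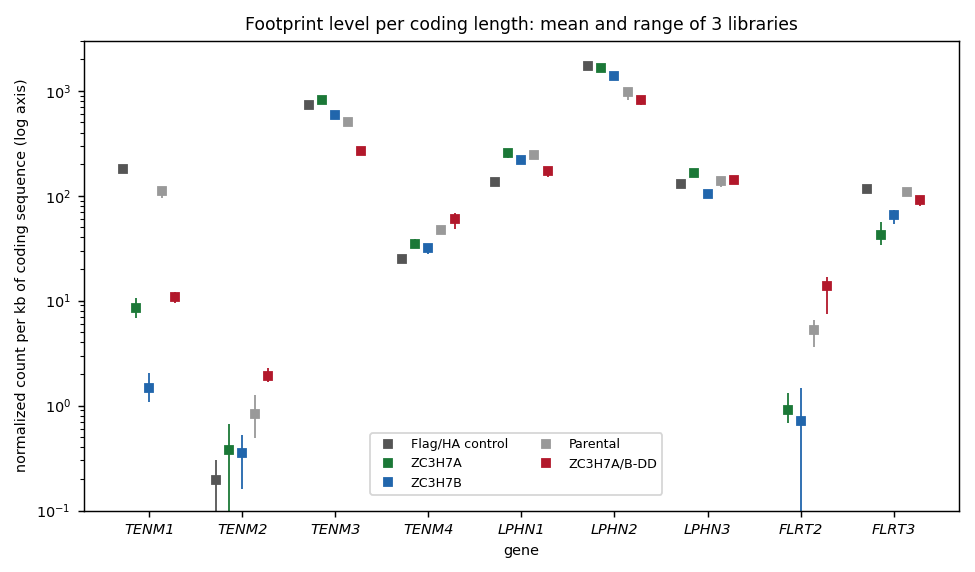
Mean normalized counts per kb of coding sequence (log axis) are shown for 9 genes in 5 groups, with vertical lines from the lowest to the highest of 3 libraries, cut at the lower edge of 0.1; FLRT2 in the Flag/HA control is at 0 and is not drawn. LPHN2 and TENM3 lead in every group, and TENM1 spans from 1.47 with ZC3H7B to 178 in its control.

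Codon content was not used to choose the members and was set beside their changes. Over the whole coding sequence, codons ending in A or T made up 16.4% in LPHN1, 29.5% in TENM4, 33.1% in TENM2, 37.6% in FLRT2 and 47.4% in TENM3. They made up 52.4% in TENM1, 54.4% in LPHN3, 57.4% in FLRT3 and 58.7% in LPHN2. Over 13293 genes with a coding sequence and a test in the Flag/HA lines, LPHN1 had more such codons than only 6.47% of genes and LPHN2 more than 80.2%.

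These genes were put into 5 bins of this percentage with near-equal numbers, and the same limits were used in the other set of lines. Genes of the lowest bin had a median log2 change of 0.22 with ZC3H7A and 0.20 with ZC3H7B, and genes of the highest bin -0.15 and -0.15. LPHN1, in the lowest bin, was above its bin's median in both lines (0.90 and 0.71). TENM4, in the next bin, was also above (0.46 and 0.33, against medians of 0.11 and 0.12). LPHN2, in the highest bin, was at -0.08 and -0.31. FLRT3 and TENM1 both lie in bin 4 of 5, where the medians were -0.07 and -0.06, and both were far below them. LPHN3 lies in the same bin and was above the median with ZC3H7A (0.35) and below it with ZC3H7B (-0.30). TENM3, in the middle bin with medians of 0.02 and 0.05, was at 0.17 and -0.32.

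In the libraries labelled ZC3H7A/B-DD the medians ran from -0.04 in the lowest bin to 0.10 in the highest. LPHN1 was at -0.51 there and LPHN2 at -0.26. TENM3, in the middle bin with a median of -0.03, was at -0.90. TENM4 was at 0.34, against its bin's median of -0.04. LPHN3 (0.03) and FLRT3 (-0.26) share a bin with a median of 0.01. TENM2 (1.17) and FLRT2 (1.25) met the minimum level only through the group where they are higher. These are descriptions of 9 genes against the medians of many.

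**Figure D4:**
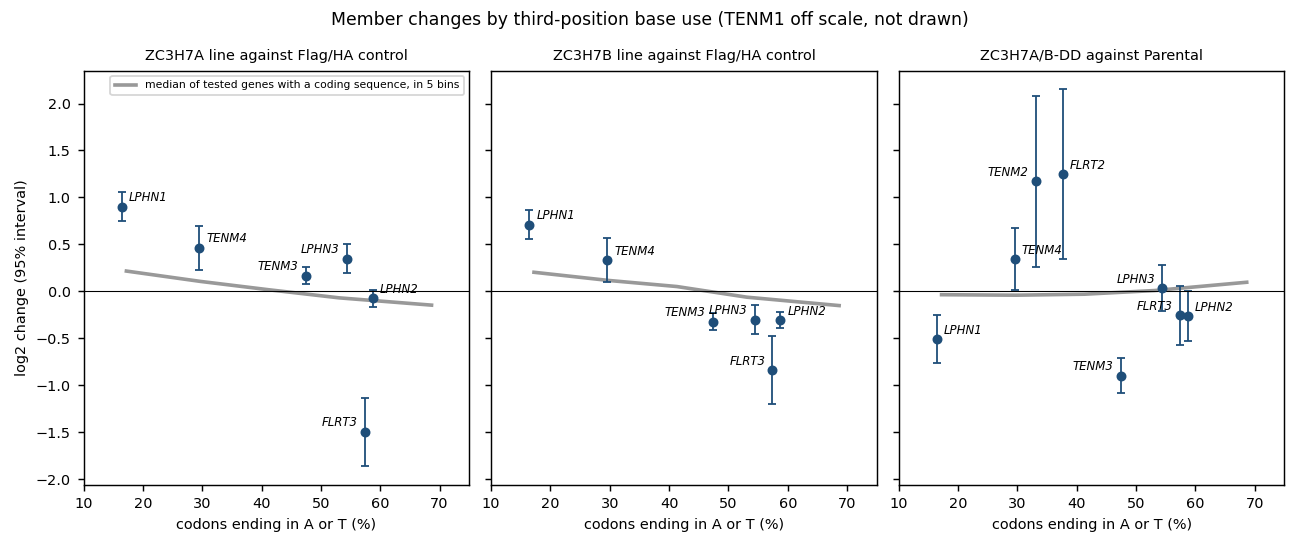
Log2 changes (vertical axis, bars are 95% intervals of the limma fit) of the tested genes other than TENM1 are plotted against the percentage of their codons that end in A or T, in 3 comparisons; the grey line joins the medians of the tested genes with a coding sequence in 5 bins of that percentage, with limits set in the Flag/HA lines. LPHN1 lies above the line with ZC3H7A and ZC3H7B and below it in the libraries labelled ZC3H7A/B-DD, and FLRT3 lies below it in the Flag/HA lines.

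Genes whose levels followed TENM1 most closely were ranked by Pearson's r of log2(normalized count + 1), taking for each of 12753 genes the lower of r over the 9 Flag/HA libraries and r over the other 6. The libraries of a group share their cell line, so these values describe the groups more than single libraries. First came SLC4A7, a sodium bicarbonate cotransporter, with r = 0.980 and 0.981. PCCB, a subunit of propionyl-CoA carboxylase, followed with 0.996 and 0.979, and VPS13C, a lipid transfer protein, with 0.978 and 0.986. STK17B, a kinase, had 0.977 and 0.983, and ELMOD2, a GTPase-activating protein, 0.991 and 0.9746. All 5 were lower in the 3 perturbed lines, by at most 1.45 log2 units, less than TENM1. Their direction follows from the ranking by likeness, and the larger fall of TENM1 from the way it was chosen. Neither is a test.

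Within the family, LPHN2 ranked 612 of 12753 in likeness to TENM1 (r = 0.87 and 0.74) and FLRT3 947 (0.65 and 0.79). TENM3 ranked 1434, with r = 0.51 over the Flag/HA libraries and 0.99 over the other 6. LPHN1 had r = -0.81 and 0.92.

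Coding genes around TENM1 on chromosome X were also described. TENM1 was chosen for its falls, so smaller changes in these genes follow from that choice and test nothing. The 11 nearest coding genes with a test were 5 on each side and the overlapping STAG2. They were picked after the values of TENM1 were known and reach 4942 kb away, with SMARCA1, the nearest at higher coordinates, at 4483 kb. Their log2 changes ranged from -0.70 to 0.75 with ZC3H7A, from -0.84 to 0.66 with ZC3H7B and from -0.69 to 0.95 in the libraries labelled ZC3H7A/B-DD. STAG2, a cohesin subunit on the opposite strand, shares 241 exonic bases with TENM1 (1.87% of the exonic bases of TENM1). It was at -0.32, -0.75 and 0.23 in the 3 comparisons. Reads from the shared bases cannot be told apart if counting ignored strand.

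Partners that FLRT proteins bind were followed through FLRT1, 4 UNC5 netrin receptors, FGFR1 and ROBO1, of which 6 met the minimum level. With ZC3H7A 2 were higher and 2 lower (median log2 -0.004, against 0.02 over all genes, of which 57.5% were called). With ZC3H7B 1 was higher and 2 lower (-0.12, against 0.04 over all genes, of which 54.3% were called). UNC5C, a netrin receptor, rose by 0.20 with ZC3H7A (2213 ± 72.1 against 1921 ± 81.1, limma adjusted p = 0.00199). It fell by 0.71 with ZC3H7B (1175 ± 36.4, limma adjusted p = 8.21e-11). UNC5B fell by 0.44 with ZC3H7A (limma adjusted p = 1.41e-06) and by 0.63 in the libraries labelled ZC3H7A/B-DD (limma adjusted p = 0.00211), where UNC5C rose by 0.36 (limma adjusted p = 0.0153).

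Other synaptic adhesion proteins numbered 36, with 17 tested in the Flag/HA lines and 23 in the other set. With ZC3H7A 5 were higher and 3 lower, against 29.2% and 28.2% of all genes (median log2 -0.07, against 0.02). With ZC3H7B 2 were higher and 10 lower, against 28.9% and 25.4% of all genes (median -0.28, against 0.04). In the libraries labelled ZC3H7A/B-DD 1 was higher and 4 lower, against 11.0% and 13.5% of all genes (median 0.11, against 0.02). LRRTM4, a leucine-rich repeat protein of excitatory synapses, fell by 1.98 with ZC3H7A (52.1 ± 4.00 against 208 ± 4.02, limma adjusted p = 1.33e-10). With ZC3H7B it stood at 137 ± 15.6, and every library there also lay below every control library. In the libraries labelled ZC3H7A/B-DD it fell by 2.71 (40.4 ± 2.92 against 269.9 ± 32.6, limma adjusted p = 1.49e-05). CNTN1, a contactin, fell by 0.69 with ZC3H7A (limma adjusted p = 6.69e-10) and by 1.24 with ZC3H7B (limma adjusted p = 2.94e-14). It stood at 2728 ± 151 in the libraries labelled ZC3H7A/B-DD against 2543 ± 382 in Parental. Among the genes that were higher, CADM4 rose by 0.34 with ZC3H7A (limma adjusted p = 0.000205). PTPRS rose by 0.35 with ZC3H7B (limma adjusted p = 7.23e-07). LRRTM2 rose by 1.35 in the libraries labelled ZC3H7A/B-DD (88.2 ± 16.9 against 34.6 ± 10.0, limma adjusted p = 0.00747).

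Of 29 adhesion G protein-coupled receptors other than the latrophilins, 12 were tested in the Flag/HA lines. With ZC3H7A 2 were higher and 7 lower, against 29.2% and 28.2% of all genes (median log2 -0.21, against 0.02). With ZC3H7B 2 were higher and 5 lower, against 28.9% and 25.4% (median -0.11, against 0.04). BAI1 rose by 1.81 with ZC3H7A (626 ± 40.0 against 178 ± 13.8, limma adjusted p = 1.50e-12) and by 0.85 in the libraries labelled ZC3H7A/B-DD (limma adjusted p = 0.00273). There, 2 of 17 were higher and 4 lower, against 11.0% and 13.5% of all genes (median -0.21, against 0.02). GPR126, a receptor needed for myelination by Schwann cells, fell by 1.03 with ZC3H7A (limma adjusted p = 3.06e-14) and by 0.39 with ZC3H7B (limma adjusted p = 3.42e-07). Genes for intracellular partners and processing numbered 18, and 17 were tested. With ZC3H7A 7 were higher and 3 lower, where 57.5% of all genes were called, and with ZC3H7B 7 and 4, where 54.3% were (medians 0.11 and 0.16, against 0.02 and 0.04). In the libraries labelled ZC3H7A/B-DD 1 was higher and 1 lower, where 24.5% of all genes were called (median 0.04, against 0.02). GNAO1, a G protein alpha subunit, rose by 1.46 with ZC3H7A (limma adjusted p = 1.46e-10) and by 1.52 with ZC3H7B (limma adjusted p = 7.35e-11). FURIN, a protease that cuts many surface proteins, fell by 0.32 with ZC3H7B (limma adjusted p = 0.000151). In the libraries labelled ZC3H7A/B-DD it fell by 0.49 (limma adjusted p = 0.0143). With ZC3H7A it stood at 993 ± 67.0 against 1109 ± 26.2 in the Flag/HA control.

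Markers of other cells also differed between the groups in which TENM1 and FLRT3 fell. Per Flag/HA control library, 6 blood genes summed to 603 to 796 normalized counts. They summed to 244 to 315 with ZC3H7A and to 321 to 436 with ZC3H7B. In Parental they summed to 160.3 to 215, and in the libraries labelled ZC3H7A/B-DD to 305 to 367. HBB, a globin, made up most of it in these groups, and PTPRC stayed at or below 3.77 there. The 8 fibroblast genes summed to 108 to 139 in the control. With ZC3H7A they summed to 155 to 172, and with ZC3H7B to 158 to 199, with FAP at 0 in the latter. In Parental they summed to 584 to 768, and in the libraries labelled ZC3H7A/B-DD to 398 to 512. The part of these genes in the changes of the adhesion receptors was not tested.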

How the data were processed

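The deposited table holds a normalized signal per gene name for 15 libraries, made by the authors and called normalized counts here. The builds hg19 and hg38 and the tools DESeq2, HTSeq, STAR, Bowtie and cutadapt are listed without roles or versions, per the submitters' processing notes. How footprints were filtered and how reads with several positions or shared exons were counted is not given in the sources used here. All values of a library were whole multiples of 1 step (100% within 0.001 reads), so reads and depths were recovered. The table has 4 duplicated names and 10735 names without a read.

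The test was limma's moderated linear model (version 3.58.1, R 4.3.3, eBayes with a trend) on log2(value + 1). A gene was tested if 3 or more of the libraries fitted reached a value of 10. P-values were adjusted by Benjamini-Hochberg over all genes tested (15599 in the 9 Flag/HA libraries, 17092 in the other 6) and called under 0.05. One model held the 9 Flag/HA libraries with 3 contrasts, another the remaining 6. The procedure was tested on simulated data. Intervals of folds and the floor of 3 reads use exact Poisson limits at 95% and cover counting error alone, as molecular identifiers are not mentioned.

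Genes were matched by name to GENCODE release 29 (35473 names), and the longest coding sequence of at least 30 codons was used. From the lists, up to 2 called genes per direction and comparison with the smallest p and a mean of at least 20 in either group could be named. The members, lists and named-gene rule were chosen with earlier results of these data known. Alternatives were other pseudocounts, filters and scalings, library weights, a replicate block, edgeR 4.0.16 and DESeq2 1.42.0 on the recovered reads, 1 fit of all 15 libraries, and leaving out each library.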

Additional observations from a re-analysis of the deposited data

Results flagged for a closer look

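For 5 family members the change against the shared Flag/HA control differed between the overexpressing lines, by limma's contrast of the ZC3H7A line minus the ZC3H7B line (n = 3 against 3, adjusted over 15599 genes). TENM3 differed by 0.4875 log2 units (limma adjusted p = 3.33e-09), having risen in one line and fallen in the other. LPHN3 did likewise, with a difference of 0.6528 (limma adjusted p = 1.867e-07). LPHN2 differed by 0.2293 (limma adjusted p = 0.0001613) and had passed the threshold, as a fall, with ZC3H7B but not with ZC3H7A. FLRT3 differed by -0.6554 (limma adjusted p = 0.004587), having fallen in both lines. LPHN1 differed by 0.1892 (limma adjusted p = 0.049), having risen in both, and this call was lost in 5 of 6 fits without a library. Of all genes tested, 36.6% differed in this contrast.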

How the results depend on the processing

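Of 283 results under other settings, 265 kept their direction and side of the threshold, 11 lost and 5 gained a call, and 2 turned direction. Of 156 that left out a library, 140 kept both, 13 lost and 2 gained a call, and 1 turned. Family members called between the overexpressing lines numbered 3 (5 in the report) when all 15 libraries shared 1 fit. In the libraries labelled ZC3H7A/B-DD, 6 were called with library weights (3 in the report). Leaving out a library gave 1 to 4 there, with 1 without Parental replicate 2 and 3 without Parental replicate 3. It gave 5 to 5 with ZC3H7A, 5 to 6 with ZC3H7B and 4 to 5 between these lines. LPHN2 with ZC3H7A turned to 0.0575 with quantile scaling. LPHN3 in the libraries labelled ZC3H7A/B-DD turned to -0.0559 with library weights, and leaving out a library gave -0.0585 (without Parental replicate 3) to 0.101 (without Parental replicate 2). TENM4 with ZC3H7B lost its call with quantile scaling (limma adjusted p = 0.116) and in the fit of all 15 libraries (0.0526). The cause of these shifts was not tested. TENM1 with ZC3H7B was at -6.07 with a pseudocount of 10, which shrinks low values. Correlations were -0.13 to 0.09 for same-numbered samples and -0.10 to 0.17 for differently numbered ones, so no pairing by number was seen. With 3 libraries per group this check is weak. With the replicate number as a block, 5, 6, 5 and 2 members were called (5, 6, 5 and 3 without it), and FLRT2 was the call lost (limma adjusted p = 0.0892). Depth limits TENM2, FLRT2 and, with ZC3H7B, TENM1.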
